A study of Drosophila melanogaster with 3 samples.

Results

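Chromosome 4 of Drosophila melanogaster, the dot chromosome, was described in 4C maps of 3 insulator sites. Its members are the 1 kb windows of the chromosome 4 sequence that hold 5 or more array probes: 1243 windows, 0.998% of the 124564 such windows on the arrays. The chromosome had probes in 1307 windows, of which 64 fell short of 5 probes, and another 41 windows up to the last probe had none. The members hold 20666 of its 20810 probes, with a median of 18 per window. In 4C, cross-linked chromatin is cut with DpnII and ligated, and DNA joined to a chosen bait fragment is amplified by inverse PCR. The material was S2-DRSC, a Drosophila cell line of embryonic origin. BaitA (3R, 91997 to 92920), BaitB (2L, 8485115 to 8485894) and BaitC (3R, 384440 to 385252) had 1 two-colour tiling array each, with the 4C product in Cy5 and unligated DpnII-cut DNA in Cy3 as the background of that array. No bait lies on chromosome 4. With 1 array per bait no p-value is given, no difference has a replicate check, and each SD below is a spread over windows or probes within an array. The headers place BaitB and then BaitA on the same slide, and BaitC on another reused slide. Whether that moved the values was not tested.

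The dot chromosome is the smallest of the fly's chromosomes. It is packaged largely as heterochromatin, is rich in repeats and rarely recombines, yet its genes are expressed, and a protein abbreviated POF binds along it. Insulator sites are bound by proteins that take part in chromosome folding, and the maps asked which other sites lie near 3 of them in the nucleus. All values are log2 ratios of 4C product over unligated DNA minus the median of all probes of the array, so that 0 is the level of a typical probe and 1 is a 2-fold excess.

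Chromosome 4 stood above the autosomal arms without the bait in all 3 arrays. With BaitA its windows averaged 1.00 ± 1.63 (SD over 1243 windows), against 0.27 ± 1.91 over the 65518 windows of 2L, 2R and 3L. BaitB gave 0.50 ± 1.63 on chromosome 4 and -0.04 ± 1.90 over 2R, 3L and 3R, and BaitC gave 0.54 ± 0.82 on chromosome 4 and -0.07 ± 1.02 over 2L, 2R and 3L. The differences were 0.73, 0.54 and 0.61 for BaitA, BaitB and BaitC, each smaller than the SD of single windows. In units of the SD of the arms' windows they were 0.381, 0.283 and 0.602. No arm without a bait averaged higher than chromosome 4 in any of the arrays: the next was 2R with BaitA at 0.37 and with BaitB at 0.27, and X with BaitC at 0.25. The arm that carries BaitB, 2L, averaged 1.04 in the BaitB array, above chromosome 4. The heterochromatic scaffolds of chromosomes 2 and 3 averaged 1.88, 1.12 and 0.49, so chromosome 4 lay below them with BaitA and BaitB and at 0.54 against 0.49 with BaitC.

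Chromosome 4 differed from the arms more at the 5th percentile of the windows than at the 95th. With BaitA, 687 member windows (55.3%) were at or above 1, where the share over all windows of that array was 37.5%, and 167 (13.4%) were at or below -1, against 31.7% of all windows. BaitB had 512 windows (41.2%) at or above 1, against 37.0% of all, and 260 (20.9%) at or below -1, against 32.0%. BaitC had 376 windows (30.2%) at or above 1, against 18.8% of all, and 47 (3.78%) at or below -1, against 16.5%. Here and below, all windows include the arm that carries the bait. In the BaitB array that arm, 2L, had 52.7% at or above 1. On the autosomal arms without the bait the shares at or above 1 were 38.3%, 33.1% and 15.3% with BaitA, BaitB and BaitC. At or below -1 they were 30.4%, 34.7% and 19.9%. The 5th percentile of the windows was -2.06 on chromosome 4 and -2.68 on the arms with BaitA, -2.28 and -2.94 with BaitB, and -0.92 and -1.72 with BaitC. The 95th percentiles lay closer together, at 3.37 and 3.32 with BaitA, 2.98 and 3.01 with BaitB, and 1.83 and 1.58 with BaitC. When each array was divided by the SD of its probes, a limit of 1 was a higher bar: 10.5% of chromosome 4 windows then reached it with BaitB, against 12.2% of all windows, and BaitC had 11.2% on chromosome 4 against 8.38% of all windows. BaitA then had 236 windows (18.99%) on chromosome 4 at or above the limit, against 13.7% of all windows. The arms without the bait were not counted apart on this scale.

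**Figure D1:**
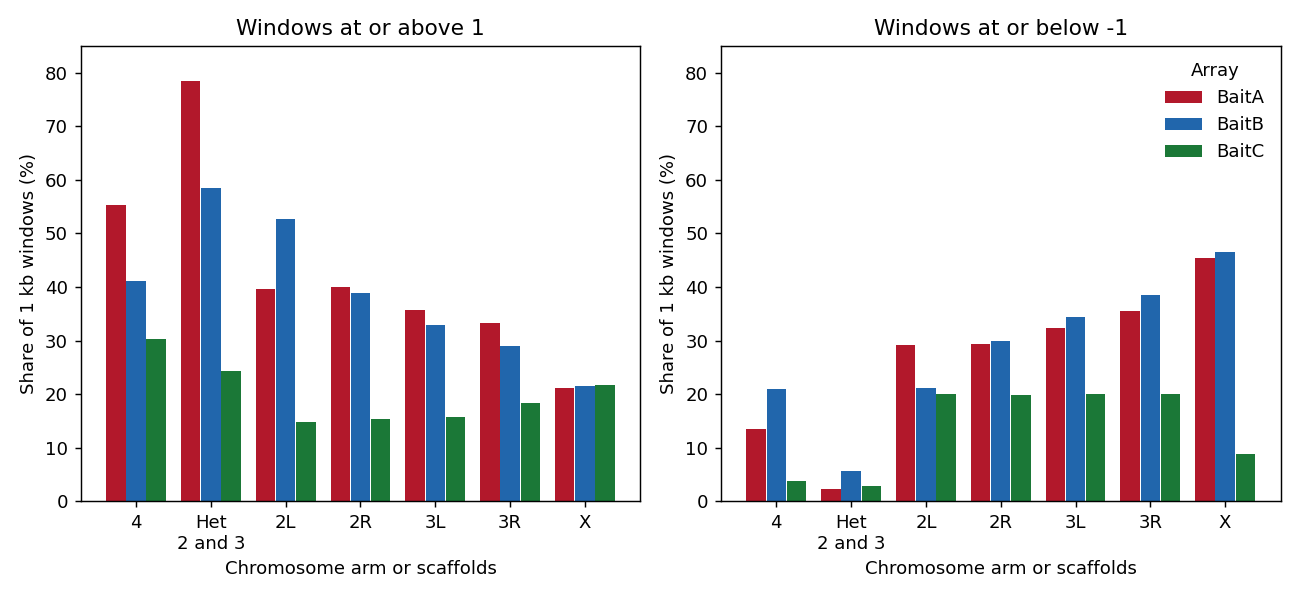
Share of 1 kb windows at or above 1 (left) and at or below -1 (right) on the centred log2 scale, for chromosome 4, the heterochromatic scaffolds of chromosomes 2 and 3 and each major arm; bars are coloured by array, 1 array per bait. Chromosome 4 has 55.3%, 41.2% and 30.2% of windows at or above 1 and 13.4%, 20.9% and 3.78% at or below -1 with BaitA, BaitB and BaitC.

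Windows with few probes were higher. Repeats leave few unique probes, and these windows are frequent on chromosome 4, where 177 of 1243 (14.2%) hold under 15 probes. Among windows of 15 to 19 probes the means were 0.92 on chromosome 4 and 0.23 on the other autosomal arms with BaitA, 0.44 and -0.06 with BaitB, and 0.50 and -0.08 with BaitC, so the differences were of similar size in the well-covered windows. Among windows of 5 to 9 probes chromosome 4 averaged 1.55, against 1.89 on the arms, with BaitA, 1.14 against 1.19 with BaitB, and 0.86 against 0.41 with BaitC. At the limit of the rule, the 20 windows of 5 probes averaged 1.72, 1.30 and 0.86 with BaitA, BaitB and BaitC, and the 11 windows of 4 probes, which are no members, averaged 2.71, 1.34 and 1.00.

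The centromere side of the chromosome was high with BaitA. All 24 member windows of the first 50 kb were at or above 1 in that array, with a mean of 3.54 ± 0.84 and a range from 1.85 to 4.92, whereas BaitB averaged 0.21 ± 0.96 with 3 windows at or above 1, and BaitC 0.69 ± 0.70 with 9. The first 20 kb averaged 4.00 ± 0.61 with BaitA over 13 windows, 0.04 ± 0.98 with BaitB and 0.71 ± 0.62 with BaitC. The lowest BaitA window there, at 2.94, was at percentile 92.2 of all windows of the array. The BaitA mean was 3.28 from 20 to 30 kb, 1.73 from 60 to 70 kb and 1.13 from 90 to 100 kb, close to the 0.94 ± 1.63 over the 1122 windows between the first 100 kb and the end of the last transcribed span. The 2 highest BaitA windows of the chromosome lie in this stretch, at 15001 to 16000 (4.92) and 16001 to 17000 (4.88), 8133 and 7133 bp from the nearest span, that of CG17923. Their values were 0.99 and 0.14 with BaitB and 0.78 and 0.40 with BaitC. The longest run of adjacent windows at or above 1 with BaitA, 14 kb at 12001 to 26000, also lies there and averaged 3.76.

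BaitA itself lies close to the centromere of 3R, so the centromere side of other arms is the nearest comparison. In the BaitA array the 100 kb next to the centromere averaged 2.22 ± 1.61 on chromosome 4, 2.11 ± 1.01 on 2L, 2.05 ± 1.18 on 2R, 2.00 ± 0.98 on 3L and 0.39 ± 1.65 on X. With BaitB the same stretches gave 0.31 ± 1.37 on chromosome 4, 1.42 on 2L, 1.69 on 2R, 1.31 on 3L, 0.05 ± 1.90 on 3R and 0.20 on X. With BaitC they gave 0.72 ± 0.68 on chromosome 4, 0.30 on 2L, 0.42 on 2R, 0.43 on 3L and 0.81 on X. The 3R stretch holds BaitA itself and averaged 6.87 with BaitA. BaitC lies on the same arm outside this stretch, which averaged 1.07 with BaitC. Over 100 kb the start of chromosome 4 was thus close to 2L, 2R and 3L with BaitA. It was below those 3 arms but not below 3R with BaitB. With BaitC it was above those 3 arms, by less than the SD over windows in that array. The closeness with BaitA depended on the 100 kb cut, which joins 3.54 over the first 50 kb with 1.38 from 50 to 100 kb. Over 1000 kb BaitA averaged 1.05 on chromosome 4, 1.76 on 2L, 2.02 on 2R, 1.83 on 3L and 0.12 on X. Shorter stretches of the other arms were not measured. Without the first 100 kb and the stretch beyond the last span, chromosome 4 still stood above the arms by 0.67, 0.52 and 0.60 with BaitA, BaitB and BaitC.

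**Figure D2:**
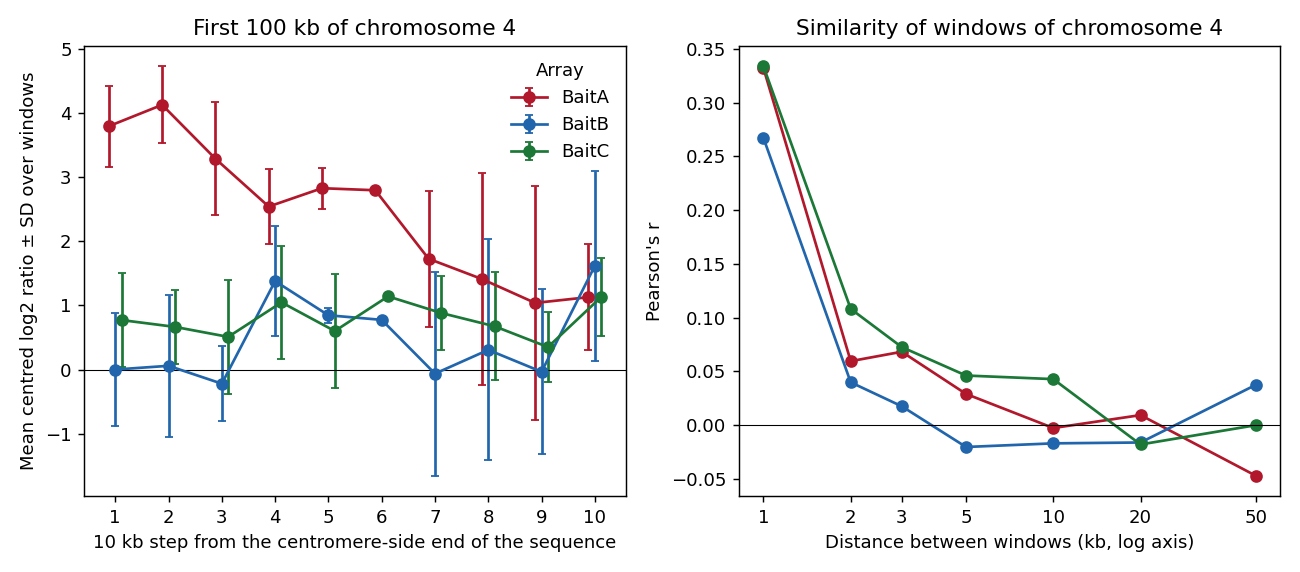
Left, mean centred log2 ratio in 10 kb steps over the first 100 kb of chromosome 4 (error bars, SD over the 1 kb windows of a step; the sixth step holds a single window), by array; BaitA is at 3.79 in the first step and 1.13 in the last, and BaitB and BaitC are below 1 in the first step. Right, Pearson's r between windows of chromosome 4 at a fixed distance, which is 0.332, 0.267 and 0.334 at 1 kb with BaitA, BaitB and BaitC and at most 0.108 from 2 kb on.

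The last 25 kb at the telomere side were high in all 3 arrays. This stretch (1323001 to 1348000) averaged 1.85 ± 0.50 with BaitA, 1.67 ± 0.71 with BaitB and 2.00 ± 0.77 with BaitC over 17 windows, and 16, 14 and 14 of these were at or above 1. No transcribed span of the peak tables reaches this stretch, the last being that of Cadps (1236895 to 1274855), and its windows hold a median of 11 probes. The whole stretch beyond that span, 1275001 to 1348000 with 58 windows, averaged 0.96 ± 1.10 with BaitA, 1.12 ± 1.06 with BaitB and 0.54 ± 1.20 with BaitC, so that with BaitA and BaitC it was at the mean of the chromosome. For BaitC it contained 1 of the 3 highest windows of the chromosome, at 1344001 to 1345000 with 9 probes (2.76, with 2.12 for BaitA and 2.02 for BaitB). The other two, at 342001 to 343000 (3.08) and 981001 to 982000 (2.83), hold 5 and 6 probes and were between 1.87 and 2.24 in the BaitA and BaitB arrays. Whether probe sequence content sets these values was not tested.

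Between its ends the chromosome showed no broad gradient. Over 14 segments of 100 kb, BaitA ranged from 0.60 in the sixth segment to 2.22 in the first, BaitB from 0.06 in the ninth to 1.24 in the last, and BaitC from 0.27 in the sixth to 0.97 in the last. Every segment average was above 0 in the 3 arrays. Neighbouring windows resembled each other with r of 0.332 for BaitA, 0.267 for BaitB and 0.334 for BaitC (1205 pairs), and at 2 kb r was 0.059, 0.040 and 0.108. Windows are the points here, they share an array, and a DpnII fragment can span the border of a pair. The 687 BaitA windows at or above 1 formed 263 separate runs of adjacent windows, the 512 of BaitB formed 249 and the 376 of BaitC formed 232. The longest runs outside the centromere side were 11 kb reaching into PlexA (1028001 to 1039000) with BaitA, 8 kb inside unc-13 (911001 to 919000) and 8 kb inside CaMKII (1060001 to 1068000) with BaitB, and 9 kb reaching out of RhoGAP102A (280001 to 289000) with BaitC. The last of these was high in the other arrays too, at 1.48 with BaitA and 1.49 with BaitB, beside 1.62 with BaitC.

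**Figure D3:**
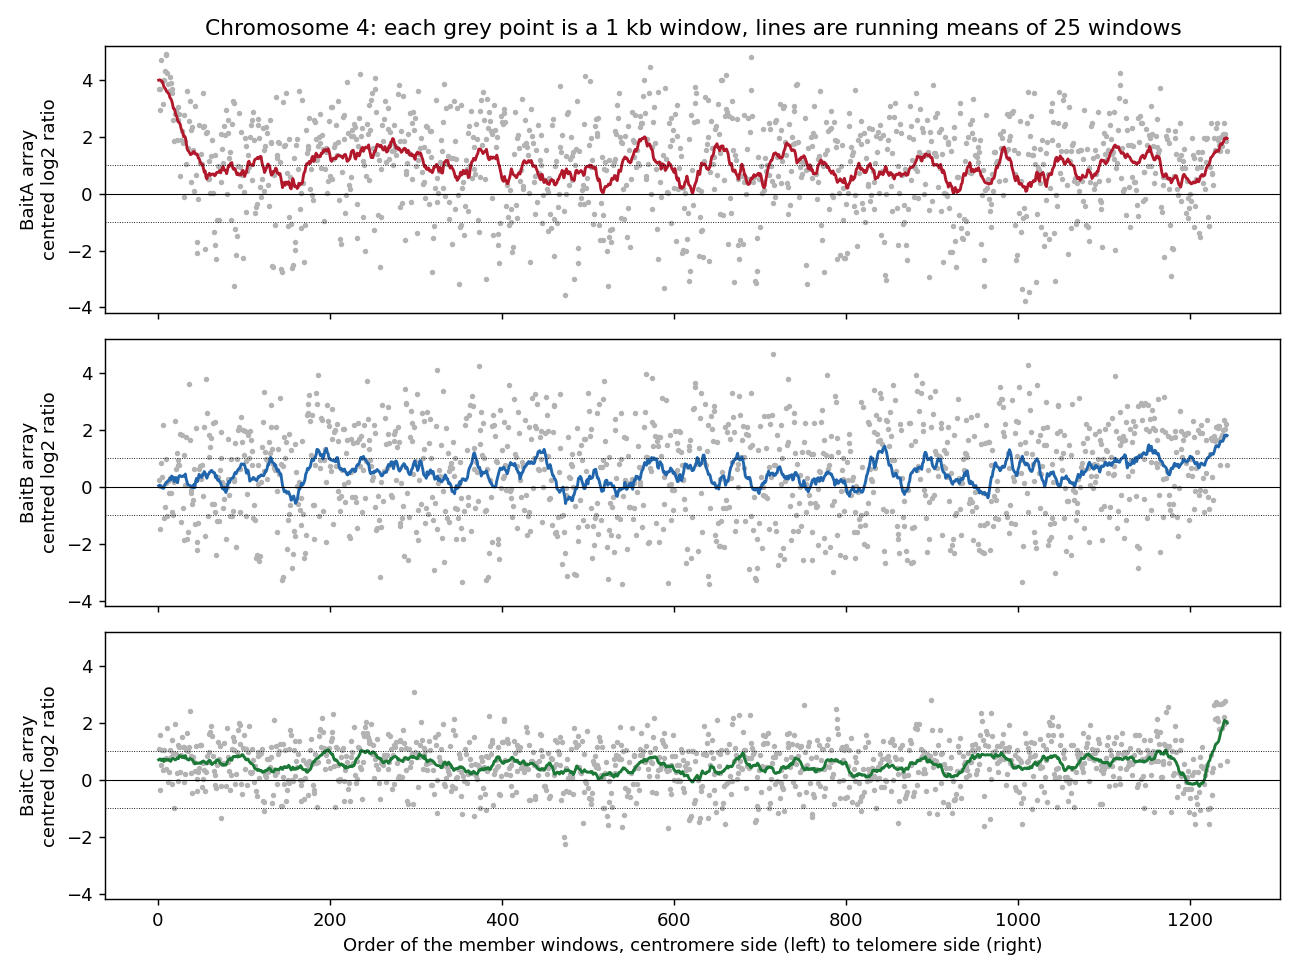
Centred log2 ratio of every member window (grey points) in order along chromosome 4 for the BaitA, BaitB and BaitC arrays, with running means of 25 windows (lines) and dotted lines at 1 and -1. The BaitA line starts near 4 at the centromere side, and all 3 lines end high at the telomere side, where the last 25 kb average 1.85, 1.67 and 2.00.

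The arrays shared part of this pattern. Pearson's r over the 1243 windows was 0.185 for BaitA with BaitB, 0.247 for BaitA with BaitC and 0.230 for BaitB with BaitC, inside or just below the ranges over the 5 large arms, 0.179 to 0.246, 0.264 to 0.349 and 0.220 to 0.296. The points share probe sequences and slides of the same design. In the same order of pairs, r was 0.159, 0.217 and 0.205 in the 1066 windows of 15 to 19 probes. It was 0.375, 0.401 and 0.366 in the 177 windows of 5 to 14 probes. Of the member windows 117 (9.41%) were at or above 1 in all 3 arrays, against 5.5% of all windows, and 10 (0.805%) were at or below -1 in all 3, against 5.44%. Windows of 15 or more probes gave 7.32% high in all 3 on chromosome 4 and 3.86% over the arrays. Windows of few probes made up 33.3% of the 117, and 14 lay in the last 25 kb. After division by the array SD, 4 windows (0.322%) reached 1 in all 3, against 0.306% of all. Among the well-covered windows, that in Eph at 634001 to 635000 had 3.06, 2.17 and 2.18 with BaitA, BaitB and BaitC, and that in Crk at 231001 to 232000 had 2.07, 2.34 and 2.17. The lowest shared window was 527001 to 528000, 14129 bp from zfh2, with -3.55, -2.32 and -2.26. It is the lowest member for BaitC and the second lowest for BaitA.

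Genes were read from the transcript spans that the authors paired with peaks, which gave 76 genes with distinct spans, and 72 with 10 or more probes. Mpv17 (9 probes; -1.17, -3.28 and -1.78 with BaitA, BaitB and BaitC), CG32021 (8 probes; 1.26, 2.44 and -0.12), CG11260 (7 probes; 1.40, -1.01 and 0.53) and CG33797 (4 probes; -2.06, -0.96 and 2.53) were left out of the ranks and counts. The median span mean was 0.87 with BaitA, 0.33 with BaitB and 0.53 with BaitC, against 0.17, 0.25 and 0.21 over 10964 genes of all major arms. Of the 72 genes 34 (47.2%) were at or above 1 with BaitA, against 28.7% of all genes, 14 (19.4%) with BaitB, against 31.8%, and 10 (13.9%) with BaitC, against 16.0%. At or below -1 there were 3 with BaitA (4.17%, all genes 19.5%), 3 with BaitB (4.17%, all genes 18.8%) and 1 with BaitC (1.39%, all genes 5.34%). Spans on chromosome 4 were longer, with a median of 6632 bp against 1716 bp over all arms, and a mean over a longer span averages more fragments. The part of span length in these shares was not tested. All genes here include those of the arm that carries the bait, and shares without that arm were not computed. Across the 72 genes r was -0.041 for BaitA with BaitB, 0.144 for BaitA with BaitC and 0.255 for BaitB with BaitC. Above 0 in all 3 arrays were 42 genes, and CG31999 and onecut were at or above 1 in each. Of the 72, only gw, which encodes the GW182 protein of microRNA silencing, was below 0 in all 3, at -0.56, -0.48 and -0.08.

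The gene with the highest BaitA mean was RpS3A (86898 to 87806), which encodes a protein of the small ribosomal subunit. It stood at 3.73 ± 0.92 (SD over 17 probes) with BaitA, -0.30 ± 2.62 with BaitB and 0.19 ± 0.73 with BaitC. ND-49 (588992 to 591321), a subunit of respiratory complex I, followed with 3.07 ± 0.89, while BaitB gave -0.46 and BaitC 0.97. The remaining 4 of the top 6 were yellow-h at 2.46, CG1909 at 2.17, CG17923 at 2.15 and NfI, a transcription factor gene, at 2.14. Of these, CG17923 lies in the raised first 50 kb. RpS3A does not: the windows from 80 to 90 kb around it averaged 1.04 ± 1.82 with BaitA. With 2 kb added on each side, the BaitA mean of RpS3A was 1.54 and that of ND-49 1.98, and within 1 kb of its start site CG1909 had 0.15. At the other end of the BaitA order, CG32006 (172376 to 173894) had -2.94 ± 0.74 over 27 probes. It was also the lowest gene for BaitC, at -1.10, but stood at 0.72 with BaitB. This low level was local: with 2 kb on each side its BaitA mean was -0.43 and its BaitC mean 0.40. Arl4, a small GTPase gene, had -1.83, 0.18 and 0.70 with BaitA, BaitB and BaitC, and Zyx, which encodes the focal adhesion protein zyxin, had -1.07, 0.98 and 0.21. With 2 kb on each side Arl4 stood at -0.21 with BaitA. Next came mav at -0.70, gw at -0.56 and CG11076 at -0.49.

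BaitB spread its genes over a narrower upper range. The highest was CaMKII (1057903 to 1071145), the calcium and calmodulin dependent kinase of synapses, with 1.48 ± 2.14 over 223 probes, and BaitA gave 1.44 and BaitC 0.79 there. CG32017 at 1.46, CG11093 at 1.40, Dyrk3, a protein kinase gene, at 1.38, Tdg, a DNA glycosylase gene, at 1.33 and onecut, a homeodomain factor gene, at 1.31 completed the top 6. The lowest gene was fd102C (857834 to 859634), of the forkhead family, with -2.77 ± 1.30 over 33 probes against 0.75 with BaitA and -0.47 with BaitC. With 2 kb on each side its BaitB mean was -0.11. The others at the low end were myo at -1.21, PlexA at -1.004, Actbeta at -0.81, 4E-T at -0.78 and Mitf at -0.73.

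For BaitC the highest gene was CG11076 (1050596 to 1051436), with 2.33 ± 2.03 over 15 probes, -0.49 with BaitA and 0.32 with BaitB. A BaitC peak of 4 probes inside this span averaged 4.83. With 2 kb on each side the BaitC mean of CG11076 was 0.68, and within 1 kb of a start site it was 1.36. Crk, an SH2 and SH3 adaptor gene, had 1.79 ± 0.94, mav 1.45, CG31999 1.13, ci 1.10 and ATPsynbeta, the catalytic subunit of ATP synthase, 1.04. The 6 lowest were CG32006 at -1.10, myo at -0.89, Slip1 at -0.63, Ephrin at -0.48, fd102C at -0.47 and Gat, a GABA transporter gene, at -0.22.

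**Figure D4:**
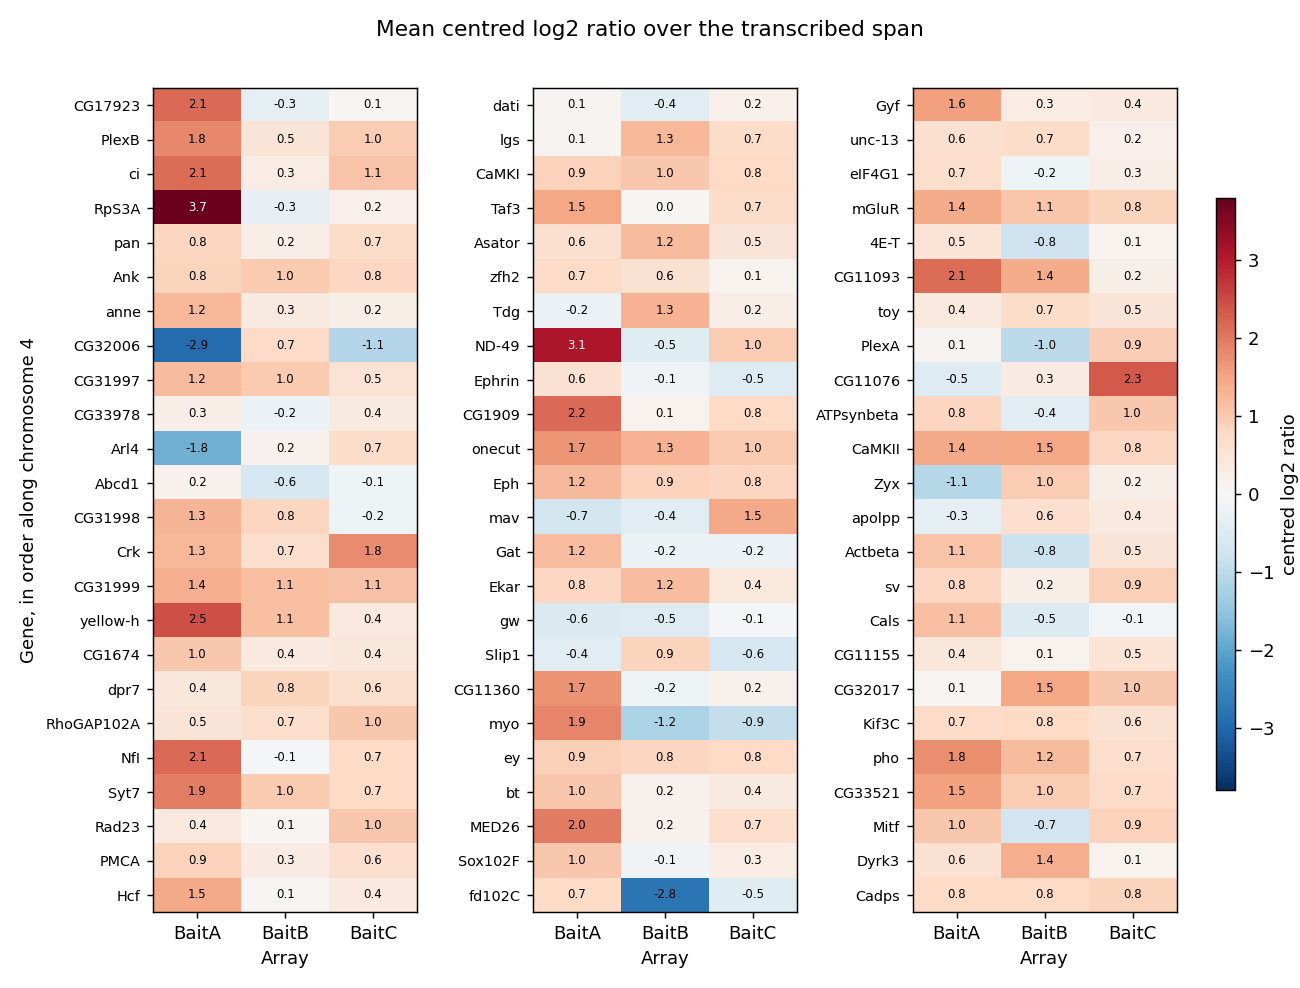
Mean centred log2 ratio over the transcribed span of the 72 genes with 10 or more probes, in order along chromosome 4 (top left to bottom right), 1 column per array; numbers in the cells are the values, red is above and blue below the array median. RpS3A (3.73) and ND-49 (3.07) stand out with BaitA, fd102C (-2.77) with BaitB and CG11076 (2.33) with BaitC.

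Several genes changed places between arrays. The largest differences in rank, counted from the highest of 72, between BaitA and BaitB were those of ND-49 (rank 2 with BaitA, 63 with BaitB), CG32017 (63 and 2) and myo (11 and 71). For BaitA against BaitC they were those of mav (69 and 3), CG11076 (67 and 1) and myo (11 and 71). For BaitB against BaitC they were those of mav (61 and 3), PlexA (70 and 13) and Dyrk3 (4 and 61). The gene myo (712616 to 715015) encodes myoglianin, and mav (643996 to 646210) encodes maverick, both ligands of the TGF-beta family. Values of myo were 1.87 ± 1.25, -1.21 ± 1.46 and -0.89 ± 1.06 with BaitA, BaitB and BaitC over 44 probes, and those of mav -0.70 ± 2.80, -0.42 ± 1.99 and 1.45 ± 1.03 over 41 probes. Both spans are short. With 2 kb on each side myo had 1.64, 0.43 and 0.19, and mav 0.67, 0.59 and 1.14, so the negative means of both genes changed sign. Ranks were not computed with these flanks.

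Transcription factors and nuclear regulators of the chromosome include several developmental genes. Of 15 listed members with enough probes, 7 were at or above 1 with BaitA, 2 with BaitB and 2 with BaitC, where the shares of all 72 genes were 47.2%, 19.4% and 13.9%, and their medians were 0.91, 0.24 and 0.70, beside 0.87, 0.33 and 0.53 for all 72 genes. The gene ci (68619 to 76494), which encodes the transcription factor of Hedgehog signalling, had 2.13, 0.27 and 1.10 with BaitA, BaitB and BaitC. The Pax6 genes had 0.91, 0.83 and 0.77 at ey and 0.37, 0.71 and 0.50 at toy, and lay furthest apart with BaitA. The Pax2 homologue sv had 0.78, 0.25 and 0.89. In the Wnt pathway pan, the TCF factor, had 0.82, 0.24 and 0.70, and its co-activator lgs 0.10, 1.28 and 0.70. Further members were Sox102F (1.01, -0.12 and 0.29), zfh2 (0.72, 0.59 and 0.15), dati (0.11, -0.39 and 0.21), Hcf (1.45, 0.05 and 0.38) and Taf3, of the TFIID complex (1.47, 0.03 and 0.70). The list is not complete: pho (1.77, 1.20 and 0.68) and MED26 (1.97, 0.16 and 0.68) are outside it and its counts.

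Among signalling ligands, receptors and adaptors, 6 of 10 were at or above 1 with BaitA, 2 with BaitB and 2 with BaitC, beside 47.2%, 19.4% and 13.9% of the 72 genes. Their medians were 1.16, 0.18 and 0.84, beside 0.87, 0.33 and 0.53 for the 72. The semaphorin receptors differed: PlexB (53643 to 64050), next to the raised first 50 kb, had 1.82, 0.50 and 0.98, and PlexA (1034984 to 1044097) 0.12, -1.004 and 0.95. The receptor Eph had 1.22, 0.89 and 0.83 and its ligand Ephrin 0.58, -0.15 and -0.48. Actbeta, the activin ligand, had 1.09, -0.81 and 0.49.

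Synaptic and neuronal genes had 5 of 10 members at or above 1 with BaitA, 3 with BaitB and 0 with BaitC, beside 47.2%, 19.4% and 13.9% of the 72 genes. Their medians were 0.97, 0.76 and 0.50, beside 0.87, 0.33 and 0.53. Members besides CaMKII were mGluR, a metabotropic glutamate receptor gene (1.40, 1.06 and 0.84), Syt7, a synaptotagmin gene (1.94, 0.995 and 0.75), and Ekar, a kainate-type receptor gene (0.79, 1.16 and 0.41). In Syt7, 22 of its 24 windows were at or above 1 with BaitA and 0 at or below -1. The shares at or above 1 were 55.3% of chromosome 4 windows and 37.5% of all windows in that array. Syt7 holds 295 probes over 25039 bp, sparser than the median of 18 per 1 kb window, and windows with few probes were higher. The vesicle genes unc-13 and Cadps had 0.62, 0.69 and 0.19 and 0.77, 0.77 and 0.84. Gat (1.19, -0.22 and -0.22), Cals (1.15, -0.52 and -0.10), Kif3C (0.74, 0.75 and 0.58) and Ephrin are the other members. Ephrin, mGluR and lgs each stand in 2 lists.

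A further list was named housekeeping, and the class of its members, Slip1 among them, was not checked. Of its 11 genes with enough probes, 3 were at or above 1 with BaitA, 2 with BaitB and 2 with BaitC. The shares of the 72 were the same 47.2%, 19.4% and 13.9%. The medians were 0.67, 0.08 and 0.36, beside 0.87, 0.33 and 0.53. Slip1 had -0.42, 0.86 and -0.63, Rad23, a DNA repair and proteasome shuttle gene, 0.38, 0.08 and 1.04, PMCA, the plasma membrane calcium pump, 0.87, 0.30 and 0.65, and eIF4G1, a translation initiation factor gene, 0.67, -0.16 and 0.26. The 3 muscle and cytoskeleton genes were bt (1.03, 0.17 and 0.35), Ank (0.84, 0.99 and 0.78) and Zyx. These lists and their counts are descriptions, and 1 long gene can hold very different windows. In bt, which encodes the giant muscle protein projectin, the 51 windows ran from -3.12 to 4.82 with BaitA, from -3.26 to 4.68 with BaitB and from -1.48 to 2.30 with BaitC. In apolpp, the apolipophorin gene, windows of -3.76 (1090001 to 1091000), the lowest of the chromosome with BaitA, and of 3.58 stood in the same 11 kb span, and the window at 1095001 to 1096000 had -3.45 with BaitA and 3.31 with BaitB.

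Of 177 values of 59 named genes, 10 whose span mean was 1 or more in size had the opposite sign within 1 kb of a start site. Of the rest, 158 were within 1 SD over probes of the span mean. That SD is wide, so a value within it can still have the opposite sign. At sv with BaitA the span had 0.78 ± 2.34 and the start site -1.51. For Crk with BaitC the start-site value was 1.76 and the span value 1.79. The changes of sign from a span mean of 1 or more in size included the following genes. At onecut the mean within 1 kb of a start site was 2.57 with BaitA, -1.26 with BaitB and 0.10 with BaitC, where the span had 1.66, 1.31 and 1.01. At mGluR the BaitB value was -1.98 near the start and 1.06 over the span, and at fd102C it was 0.12 near the start and -2.77 over the span. Windows inside spans averaged 0.91 with BaitA, 0.45 with BaitB and 0.52 with BaitC, and windows outside averaged 1.11, 0.57 and 0.57. Those differences are well below the SD of 0.82 to 1.66 over windows, which is the spread of single windows. The windows outside include raised stretches at both ends of the chromosome. From 100 kb to the last span, means with BaitA, BaitB and BaitC were 0.88, 0.45 and 0.51 inside spans and 1.01, 0.53 and 0.57 outside.

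Peaks as called by the authors, with a false discovery rate (FDR) of at most 0.05, numbered 34 on chromosome 4 with BaitA, 26 with BaitB and 39 with BaitC. Per Mb of member windows this was 27.4, 20.9 and 31.4, against 27.9, 27.1 and 24.8 on the autosomal arms without the bait. The calls depend on a height set per arm, and the lowest height that passed was 4.48 on chromosome 4 and 4.64 to 4.83 on the arms with BaitA, 4.24 and 4.45 to 4.65 with BaitB, and 2.70 and 2.91 to 2.94 with BaitC. Of the peaks, 24, 15 and 25 overlapped a span by at least 1 bp, and some of these reach beyond it. They overlapped 18 genes with BaitA (23.7%, against 14.9% of all genes), 11 with BaitB (14.5%, against 17.8%) and 22 with BaitC (28.9%, against 14.5%), again over longer spans than on the other arms. All genes again include the arm that carries the bait.

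The peaks with the lowest FDR lay at different sites with each bait. Each was chosen for height in its own array. A lower value in the other arrays is therefore no test of a difference between baits. With BaitA they lay in NfI (292110 to 292709), with a mean of 5.15 over 11 probes against -1.57 with BaitB and 1.36 with BaitC, and in Syt7 (322365 to 322634), with 5.97 against 3.86 with BaitB and 0.01 with BaitC. A BaitA peak outside every span, at 3801 to 4192 in the centromere-side stretch, averaged 5.41 with BaitA, -0.25 with BaitB and -0.12 with BaitC. With BaitB they lay 1062 bp from MED26 (797999 to 798390), with 5.29 against 1.04 with BaitA and 0.57 with BaitC, and in apolpp (1094019 to 1094730), with 4.74 against 2.34 and 1.09. BaitB peaks were also in mGluR, which held 3, and in Tdg, which held 2. With BaitC the lowest FDR belonged to peaks in Sox102F (823200 to 823409), with 4.64 against -1.71 with BaitA and 1.29 with BaitB, in CG11076 (1051054 to 1051268), with 4.83 against 0.57 and 3.09, and in bt.

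Few peaks were shared between baits. Among 34 peaks of BaitA, 1 (2.94%) met a peak of BaitB and 2 (5.88%) a peak of BaitC by at least 1 bp, which are 3.85% of the 26 BaitB peaks and 5.13% of the 39 BaitC peaks. BaitB and BaitC shared 1, or 3.85% and 2.56% of their peaks. On the autosomal arms that carry neither bait of a pair, 6.10% of BaitA peaks met a BaitB peak and 4.21% a BaitC peak, and the shares for the other ordered pairs were 4.75% to 6.93%. Over the BaitC peaks the median of the peak means was 2.79 with BaitC, 1.63 with BaitA and 1.39 with BaitB. Over the BaitA peaks it was 4.80 with BaitA, -0.30 with BaitB and 0.77 with BaitC. The higher value in a peak's own array follows from the peak call. Heights also differ in scale between arrays, with an SD over all probes of 2.45, 2.50 and 1.50 for BaitA, BaitB and BaitC. The peaks at 16956 to 17658 (BaitA) and 16956 to 17563 (BaitC) lie in the raised centromere-side stretch, where the first averaged 4.47 with BaitA, -1.47 with BaitB and 2.50 with BaitC.

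A site inside bt carried a peak of all 3 baits. The BaitA peak at 780739 to 780938 averaged 5.52 ± 0.50 over its 4 probes with BaitA, 4.54 ± 0.41 with BaitB and 3.74 ± 0.35 with BaitC. The BaitB peak at 780569 to 780841 averaged 5.03 ± 0.23 with BaitB over 5 probes, and the BaitC peak at 780674 to 781064 averaged 3.98 ± 0.40 with BaitC over 7 probes. The 1 kb window around it, 780001 to 781000, was the highest of the chromosome with BaitB at 4.68, but stood at -0.34 with BaitA and 0.79 with BaitC, so the signal was narrower in those arrays. BaitA had 6 peaks in bt, BaitB 2 and BaitC 2, over a span of 746342 to 796175.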

How the data were processed

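The deposited value table gives log2 ratios per probe for 3 two-colour NimbleGen arrays. Per the labels, Cy5 holds 4C product and Cy3 unligated DNA. Neither the log base nor any centring before deposit is given in the sources used here. Base 2 was assumed. The deposited medians were -0.16, -0.14 and -0.02 for BaitA, BaitB and BaitC. Per the file headers, the authors called peaks with NimbleScan on each array, with a score on the ratio scale and an FDR, a q-value from shuffled values. The build is not named there. The header length of chromosome 4, 1351857 bp, is that of Release 5.

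From each ratio the array's median over 2157868 probes was subtracted, and probes were averaged in 1 kb windows and in gene spans with Python 3.11.15 and pandas 2.3.3. All value columns belonged to a sample. Of 213 transcript accessions, 167 matched the Release 6 gene table, used for names alone. The others took the symbol of a matched transcript of the same name or kept the name in the files. Of its 80 protein-coding genes of chromosome 4, 9 are not analysed here. Named genes were the 6 highest and 6 lowest per array, the 3 largest rank differences per pair of arrays, genes at the 3 highest and lowest windows, and list members. Members and lists were chosen with earlier results of these data known. Lists name 4 genes outside the set: Pur-alpha, Arf4, JYalpha and RecQ4. Window averaging was tested on simulated data. PCR products saturate, so a ratio is no contact frequency, and the number of arrays limits precision. Alternatives were other centrings, scalings, window sizes, probe minimums and peak limits.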

Additional observations from a re-analysis of the deposited data

Results flagged for a closer look

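The span of myo was at or above 1 in one array and at or below -1 in another. It averaged 1.87 with BaitA and -1.21 with BaitB, a difference of 3.07 that was not tested, since each bait has 1 array. With 2 kb added on each side of the span the BaitB mean was 0.43.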

How the results depend on the processing

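No paired analysis was possible because each bait has 1 array. No mean for the whole chromosome changed sign under the alternatives. The chromosome 4 mean moved to 0.84 with BaitA and 0.36 with BaitB for values as deposited, to 0.75 with BaitB and 0.67 with BaitC when centred on the autosomal arms without the bait, and to 0.48 with BaitC for medians over probes. Medians also gave 76 windows at or below -1 with BaitC and 19 in all 3 arrays. Division by the array SD left 236, 130 and 139 windows at or above 1 and 35, 42 and 12 at or below -1 with BaitA, BaitB and BaitC, and 4 and 2 in all 3. It put BaitB below the share of all windows at or above 1, which include the arm that carries BaitB. Peaks at FDR at most 0.01 numbered 0, 9 and 14, at most 0.2 they numbered 109, 109 and 112, and with a mean of 4 or more 112, 61 and 2. Genes with a peak within 5 kb numbered 24 with BaitB and 36 with BaitC. The alternatives of 15 or more probes per window and of leaving out both ends were chosen after seeing the data. Of 531 values of 59 named genes under alternatives, 12 changed sign from a level of 1 or more in size. Within 1 kb of a start site these were Actbeta (-1.94), NfI (-0.38) and Taf3 (-1.36) with BaitA, Asator (-0.79), CaMKII (-0.67), fd102C (0.12), lgs (-0.22), mGluR (-1.98) and onecut (-1.26) with BaitB, and CG31999 (-0.36) with BaitC. With 2 kb on each side they were myo with BaitB (0.43) and CG32006 with BaitC (0.40). Another 16 moved by more than 1 SD over probes, among them Ekar (-2.19), eIF4G1 (-1.30), Slip1 (3.27) and Kif3C (2.72) with BaitA and myo (0.46) with BaitC near start sites. Of these, Ekar, eIF4G1, Slip1 and myo also changed sign, from span means of 0.79, 0.67, -0.42 and -0.89. Changes of sign within 1 SD from a span mean under 1 in size are in neither count. The cause was not tested.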
